A study of Bos taurus with 8 samples.

Results

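Citrate export and fatty acid synthesis was followed through 9 genes in bovine blastocysts that had or had not been exposed to serum lipids. The genes are the citrate carrier SLC25A1, the enzymes ACLY, ACSS2, ACACA, ACACB, FASN and ME1, and the lipogenic regulators MLXIPL and THRSP. Every expression probe whose symbol in the platform's probe-to-gene table is one of these was taken, which gave 11 probes of 43794. SLC25A1 and ACACB had 2 probes each, and the others had 1. Of the 11 probes, 9 gave enough signal above the negative control spots to be tested, and they represent 8 of the 9 genes. THRSP and the dimmer ACACB probe did not, and their values are given without a test.

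The lipid group was 4 pools of Holstein embryos produced in vitro from slaughterhouse ovaries, with lipids extracted from serum in the culture medium from day 3, at the 8-16 cell stage, to day 7. The control group was 4 pools grown in the same way without added lipids, and the labels name Sigma as the source of the serum albumin in pools of both groups. Each pool held 10 blastocysts collected 170 hours after fertilization, so a pool averages over embryos and over the cell types of the blastocyst. RNA was amplified linearly by T7 transcription before labelling. Each lipid pool shared 2 arrays with a control pool, 1 in each dye orientation, and arrays 1 to 4 of slide 87 were matched to the same numbers on slide 88. The 2 arrays of a number were averaged, so n = 4 pool pairs. Array position on the slide and pool cannot be told apart, because the numbers recur on both slides. The labels do not state that the pools came from separate fertilization runs, so the p-values measure the spread between these pools.

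In fatty acid synthesis, citrate made in mitochondria is carried to the cytosol by SLC25A1 in exchange for malate and cleaved by ACLY to acetyl-CoA and oxaloacetate. ACSS2 makes acetyl-CoA from acetate instead. Acetyl-CoA carboxylase then forms malonyl-CoA, the building block that FASN joins into palmitate with NADPH, some of which comes from ME1. ACACA supplies malonyl-CoA for synthesis in the cytosol, and ACACB makes it at the mitochondrial surface, where it inhibits the carnitine shuttle that brings fatty acids in for oxidation. In liver, these genes are induced together by carbohydrate feeding through MLXIPL (ChREBP) and SREBP transcription factors, and polyunsaturated fatty acids lower their transcription. Bovine embryos are rich in lipid droplets and accumulate more of them when serum is present in culture.

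None of the 8 tested genes of citrate export and fatty acid synthesis differed between lipid and control blastocysts beyond the spread between pools. In the limma fit 0 of the 9 tested probes passed an adjusted p of 0.05, as did 0 of all 28844 probes (0%, lowest adjusted p = 0.996). Each of the 9 had an adjusted p of 1.00 in that fit. At an unadjusted p under 0.05 there were again 0 of 9, where the array as a whole had 4.46% of probes, 2.07% higher and 2.39% lower with lipid. Of all tested probes, 15482 had a mean log2 ratio of lipid over control below 0 and 13362 above. This ratio was below 0 for 6 of the 9 member probes and above 0 for 3. It was smaller than 0.11 in size for 8 of the 9, as it was for 64.8% of all tested probes. All 9 of the 95% intervals contained 0. The widest interval by far was that of the brighter SLC25A1 probe, whose ratio ranged over the pool pairs from -1.48 to 0.67. Lipid and control pools overlapped in intensity for all 9 probes, and across the array they did not overlap for 0.877% of probes.

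**Figure D1:**
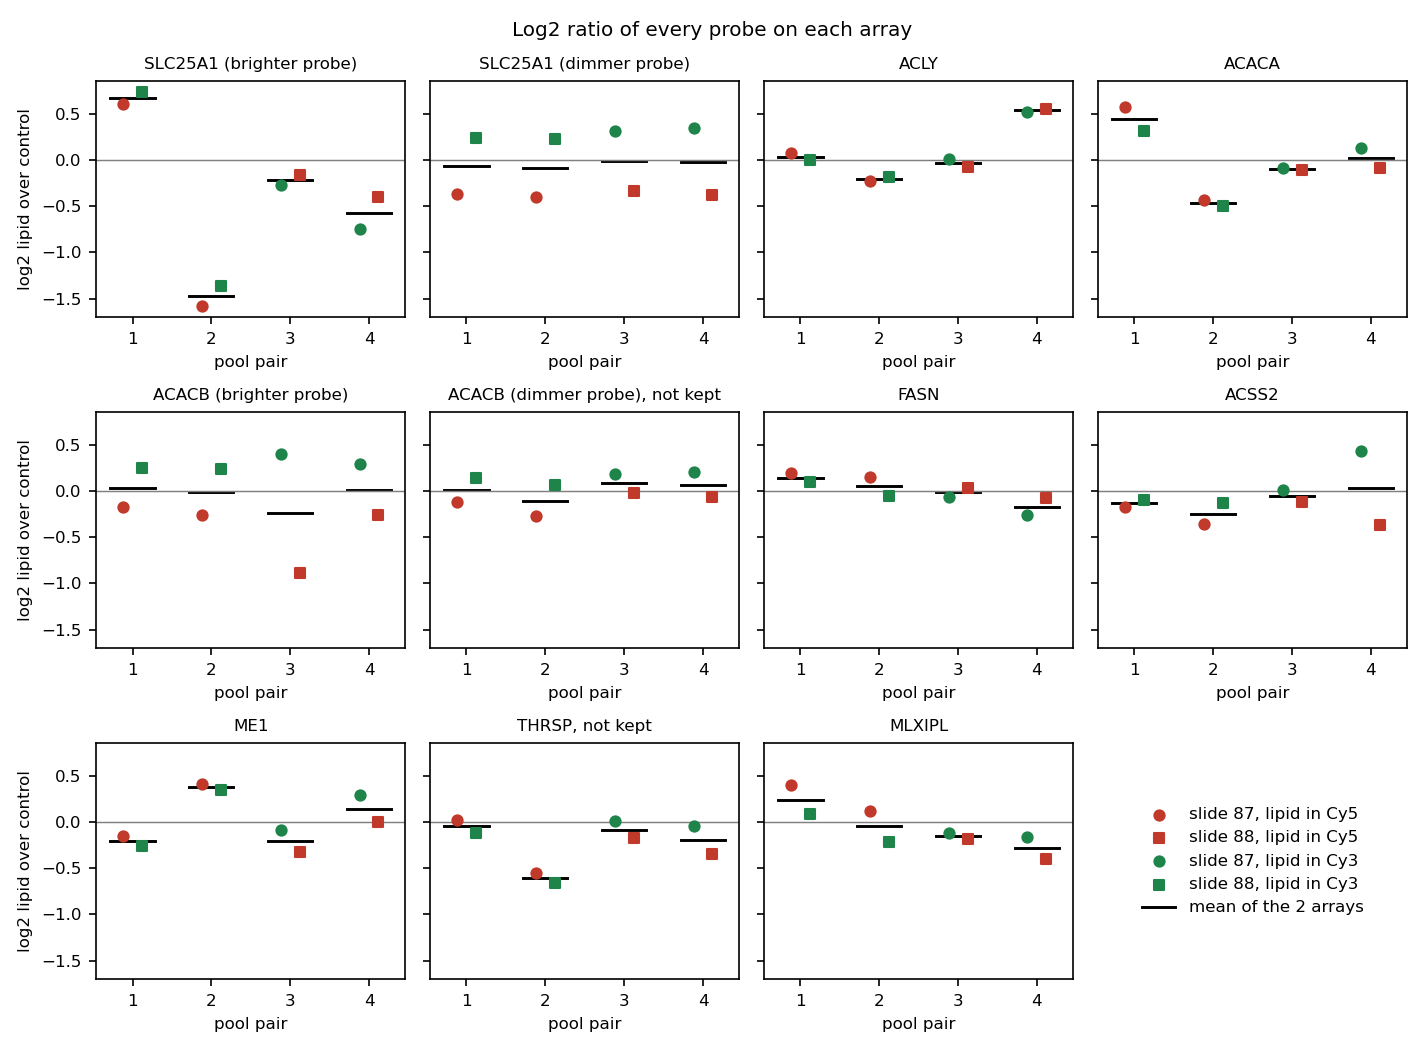
Log2 ratio of lipid over control (vertical axis) on each of the 8 arrays for the 11 probes, by pool pair (horizontal axis); circles are slide 87, squares slide 88, red has lipid in Cy5, green has lipid in Cy3, and the bar is the mean of both arrays. The brighter SLC25A1 probe spans -1.59 to 0.73 and is repeated closely on the second array of each pair, while the dimmer SLC25A1 probe and both ACACB probes separate by dye.

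SLC25A1, the mitochondrial citrate carrier, was the most variable of these genes. Its brighter probe (EMBV3_16610) had log2 ratios of 0.60, -1.59, -0.27 and -0.75 on arrays 1 to 4 of slide 87. On slide 88, with the dyes exchanged, arrays 1 to 4 gave 0.73, -1.37, -0.17 and -0.40. The sign of every pool pair was therefore the same in both dye orientations. The pool pairs averaged 0.67, -1.48, -0.22 and -0.58, so that 3 lay below 0 and 1 above.

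The normalized intensity of this probe was 1417, 441, 344 and 168 in lipid pools 1 to 4, against 893, 1227, 401 and 251 in control pools 1 to 4. Lipid pool 2 was thus 2.78-fold below its control, and lipid pool 1 was 1.59-fold above its own. The mean log2 ratio was -0.40 ± 0.34 (limma SE, n = 4 pool pairs), with a 95% interval from -1.26 to 0.45. In fold terms this interval runs from 0.418 to 1.37 times the control level. The SD over the pool pairs, 0.89, was reached by 0.992% of all tested probes, and the range over the pool pairs by 0.69%. A ratio at least 2-fold lower in pool pair 2 on both arrays was found in 0.364% of probes.

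The mean of the brighter SLC25A1 probe rested on pool pairs 1 and 2. Without pool pair 2 it was -0.044. Without pool pair 1 it was -0.76, past an unadjusted p of 0.05 but not after adjustment (limma, adjusted p = 0.623). Fitted within each slide, it was -0.50 ± 0.39 on slide 87 and -0.30 ± 0.35 on slide 88 (limma SE).

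The dimmer SLC25A1 probe (EMBV3_30387) did not show this pattern. Its ratios were -0.37, -0.41, 0.32 and 0.35 on slide 87 and 0.24, 0.23, -0.33 and -0.39 on slide 88, negative on the 4 arrays with lipid in Cy5 and positive on the 4 with lipid in Cy3. Such a turn of sign with the dye on all 8 arrays occurred in 16.7% of tested probes, and among the 9 here also in the brighter ACACB probe. After averaging over dyes, the pool pairs gave -0.064, -0.088, -0.0098 and -0.019. This was the only one of the 9 probes with a single sign in all 4 pool pairs, which 11.4% of all probes had (4.75% above 0 and 6.65% below). Its mean was -0.045 ± 0.062 (limma SE), with an interval from -0.20 to 0.11. Intensities were 178, 171, 186 and 187 in lipid pools and 186, 182, 187 and 189 in control pools. The signal exceeded the negative control limit on 4 of 8 arrays in the lipid channel and 3 of 8 in the control channel, against 7 and 8 of 8 for the brighter probe. The 2 probes thus disagree, and the sequences they target were not analysed here.

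**Figure D2:**
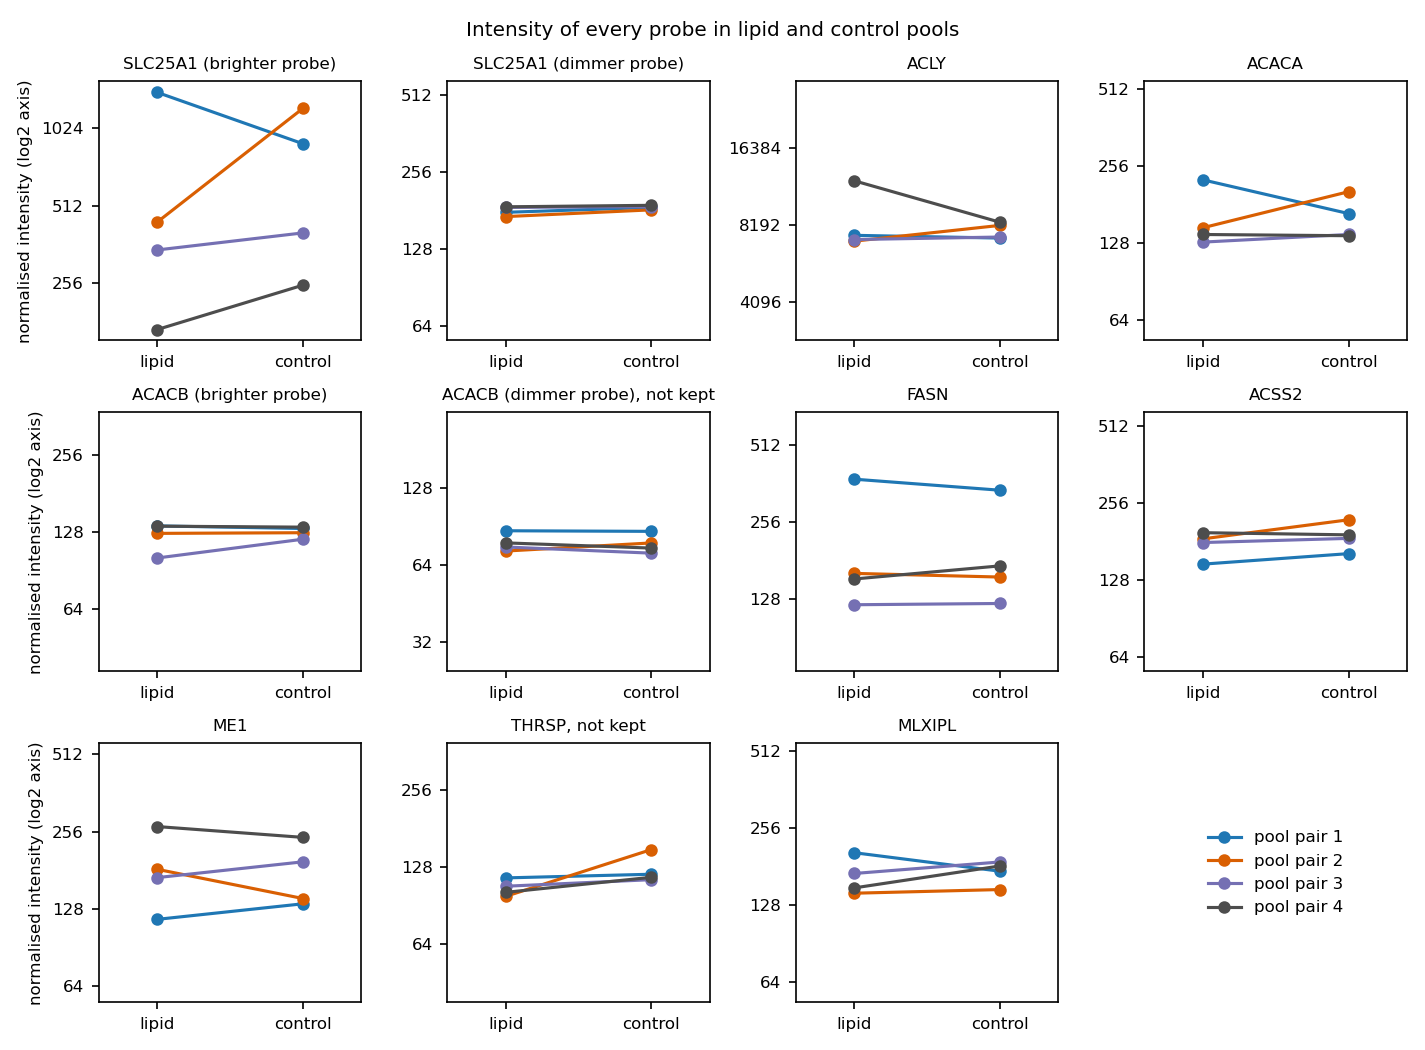
Normalized intensity (vertical axis, log2 spacing, an offset of 50 included) of each probe in lipid pools (left) and control pools (right); lines join the pools of a pair. For the brighter SLC25A1 probe the lines cross, with lipid pool 2 at 441 and control pool 2 at 1227, and for FASN the measured values of pool pair 1 lie above the others in both conditions.

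ACLY, ATP citrate lyase, was measured far above background, on 8 of 8 arrays in both channels. Its probe (EMBV3_38091) had log2 ratios of 0.077, -0.23, 0.0085 and 0.52 on slide 87 and -0.0057, -0.18, -0.073 and 0.55 on slide 88. Pool pair 4 was the only one clearly above 0, and both of its arrays showed it. Intensities were 7444, 7064, 7168 and 12154 in lipid pools, against 7263, 8140, 7331 and 8371 in control pools. Lipid pool 4 alone was therefore above every control pool, and the other 3 lipid pools lay within or just below the control range. The mean over the pool pairs (0.036, -0.20, -0.032 and 0.54) was 0.084 ± 0.13 (limma SE), with an interval from -0.26 to 0.42. Without pool pair 4 the mean was -0.067.

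ACSS2, cytosolic acetyl-CoA synthetase, had the second most negative mean of the tested probes. Ratios (EMBV3_17491) were -0.17, -0.36, 0.014 and 0.43 on slide 87 and -0.10, -0.14, -0.12 and -0.37 on slide 88, and the arrays of pool pair 4 had opposite signs. The pool pairs averaged -0.14, -0.25, -0.054 and 0.028. Pool pairs 1 to 3 were below 0, by less than the distance between the arrays of pair 4. The mean was -0.10 ± 0.075 (limma SE), with an interval from -0.29 to 0.087. Intensities were 148, 185, 179 and 196 in lipid pools and 162, 220, 186 and 192 in control pools.

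ACACA, the carboxylase that feeds fatty acid synthesis, had pool pairs of opposite sign. Its probe (EMBV3_31559) gave 0.57, -0.43, -0.091 and 0.12 on slide 87 and 0.31, -0.50, -0.11 and -0.092 on slide 88. Pool pair 1 (0.44) was above 0 and pool pair 2 (-0.47) below 0 on both arrays, and pairs 3 and 4 were near 0 (-0.099 and 0.016). The mean was -0.028 ± 0.15 (limma SE), with an interval from -0.41 to 0.36. Intensities were 226, 147, 129 and 138 in lipid pools and 167, 203, 138 and 137 in control pools. The probe was dim, above the limit on 4 of 8 arrays in the lipid channel and 2 of 8 in the control channel, so these values lie close to background.

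ACACB, the carboxylase linked to control of fatty acid oxidation, was at the edge of detection. Its brighter probe (EMBV3_32693) passed the limit on 3 arrays in the lipid channel and 1 in the control channel. Its ratios were -0.18, -0.26, 0.40 and 0.29 on slide 87 and 0.24, 0.24, -0.89 and -0.26 on slide 88, again negative with lipid in Cy5 and positive with lipid in Cy3. The pool pairs averaged 0.034, -0.0086, -0.24 and 0.013, of which pair 3 holds the array at -0.89. Intensities were 135, 126, 101 and 135 in lipid pools and 132, 127, 120 and 133 in control pools. The mean was -0.051 ± 0.078 (limma SE), with an interval from -0.25 to 0.14.

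The dimmer ACACB probe (EMBV3_10249) was above the limit on 0 of 8 arrays in either channel. Its measured ratios were -0.12, -0.28, 0.19 and 0.20 on slide 87 and 0.14, 0.066, -0.028 and -0.064 on slide 88. They follow the dye in the same way, and no fold is drawn from them. Measured intensities were 86.9, 72.4, 75.1 and 77.9 in lipid pools and 86.4, 77.9, 71.1 and 74.4 in control pools.

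FASN, fatty acid synthase, had the mean ratio closest to 0, at 0.0011 ± 0.078 (limma SE, n = 4 pool pairs). Its 95% interval from -0.20 to 0.20 corresponds to 0.873 to 1.15 times the control level as measured. The signal was above the limit on 4 of 8 arrays in each channel, so the interval does not bound the change of the transcript itself. Array ratios (EMBV3_38637) were 0.20, 0.15, -0.064 and -0.26 on slide 87 and 0.091, -0.054, 0.032 and -0.079 on slide 88. The pool pairs averaged 0.14, 0.048, -0.016 and -0.17, and arrays of pairs 2 and 3 differed in sign between slides.

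The measured intensity of FASN was 377, 162, 122 and 154 in lipid pools and 341, 156, 123 and 173 in control pools. Pool 1 had the highest value in both conditions. In pool pair 1, both channels were above the limit on slide 88 and neither was on slide 87. That slide 87 array had the highest limits of all arrays. Raw FASN signals on it were 406 in the lipid channel (limit 461) and 468 in the control channel (limit 958). In pool pair 3 neither channel was above it on either slide, so no fold between pools is given.

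ME1, the cytosolic malic enzyme that yields NADPH, had ratios of -0.15, 0.41, -0.088 and 0.29 on slide 87 and -0.26, 0.35, -0.32 and -0.0049 on slide 88 (EMBV3_08984). The pool pairs averaged -0.20, 0.38, -0.20 and 0.14, 2 on each side of 0. The mean was 0.028 ± 0.12 (limma SE), with an interval from -0.28 to 0.34. Intensities were 116, 182, 169 and 268 in lipid pools and 134, 140, 195 and 243 in control pools. Pool 4 had the highest value in both conditions and was above the limit in both channels on both slides, whereas pool pair 1 was above it in neither channel on either slide. ME1 was above the limit on 5 arrays in the lipid channel and 4 in the control channel.

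The level of the brighter SLC25A1 probe differed between the pool pairs. It varied 5.48-fold between them, more than for 99.6% of tested probes, and the median probe varied 1.31-fold. In both conditions pools 1 and 2 were the brightest, pool 3 was next and pool 4 the dimmest, with the lipid channel of pool pair 4 below the limit on slide 88. Between pool pairs there is 1 lipid and 1 control pool each, so these differences in level have no replicate beyond the repeat of the arrays.

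**Figure D3:**
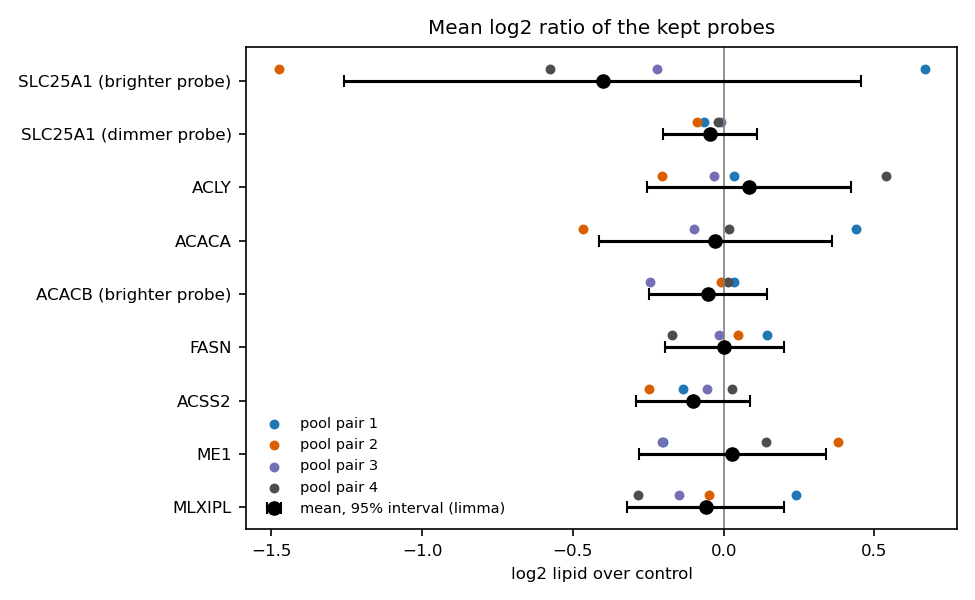
Mean log2 ratio of lipid over control (horizontal axis) of the 9 tested probes, with the 95% interval from limma over 4 pool pairs (black) and the value of each pool pair (coloured). All 9 intervals contain 0; that of the brighter SLC25A1 probe runs from -1.26 to 0.45, and that of FASN from -0.20 to 0.20.

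Of the regulators, MLXIPL, the carbohydrate-responsive transcription factor of lipogenic genes, had ratios of 0.40, 0.12, -0.12 and -0.16 on slide 87 and 0.083, -0.22, -0.18 and -0.41 on slide 88 (EMBV3_20209). The pool pairs averaged 0.24, -0.047, -0.15 and -0.28, with 1 above 0. The mean was -0.060 ± 0.10 (limma SE), with an interval from -0.32 to 0.20. Intensities were 205, 142, 170 and 149 in lipid pools and 173, 147, 188 and 182 in control pools. MLXIPL passed the limit on 3 arrays in the lipid channel and 6 in the control channel, so its lipid values did not exceed background on most arrays.

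THRSP, a nuclear protein that promotes lipogenesis in liver and mammary gland, was not well above background. It passed the limit on 0 of 8 arrays in the lipid channel and 1 of 8 in the control channel. Measured ratios (EMBV3_05352) were 0.023, -0.55, 0.0073 and -0.047 on slide 87 and -0.12, -0.66, -0.18 and -0.34 on slide 88. Pool pair 2 was the lowest on both arrays. Measured intensities were 116, 98.3, 108 and 102 in lipid pools and 120, 150, 114 and 117 in control pools, and the control mean did not exceed the lowest signal that counted as above background. No fold was therefore computed.

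Taken by gene through the brighter tested probe, the 8 measured genes had a median log2 ratio of -0.040, with 3 above and 5 below 0. All 11685 genes with a tested probe had a median of -0.00028, with 5828 above 0 and 5857 below. The median size of the ratio was 0.056 for the 8 genes and 0.081 for all genes, and the median SD over pool pairs was 0.25 for the 8 genes and 0.23 for all genes. In pool pairs 1 to 4 the median of the 8 genes was 0.089, -0.13, -0.12 and 0.014. Signs were mixed within single pool pairs. In pool pair 2, 6 of the 8 were below 0, and ME1 (0.38) and FASN (0.048) were above it. Among all 11685 genes, 6170 were above 0 in that pair. Within single slides, the fits of 4 of the 9 probes had the same sign on slides 87 and 88, while 60.9% of all tested probes did.

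Pool pair 2 also stood apart in markers of other cells. Of 18 markers of cumulus, granulosa and stromal cells, the cell types around the oocyte in the follicle and of the ovary's connective tissue, 15 were measured. In pool pair 2, 13 of the 15 were higher in the lipid pool, 7 of them at least 2-fold, with a median log2 ratio of 0.74. CYP19A1 (-0.24) and HAS2 (-0.18) were lower, and FSHR (0.023) was near 0. Over all 11685 measured genes, 6170 were higher in that pair, 252 of them at least 2-fold. In pool pairs 1, 3 and 4, 41, 44 and 55 genes were at least 2-fold higher. The medians of pool pairs 1, 3 and 4 were -0.090, 0.0061 and 0.13. Their summed intensity was 7823, 42773, 12419 and 8044 in lipid pools 1 to 4, against 7883, 10686, 16660 and 7275 in control pools 1 to 4. Lipid pool 2 was thus above every other pool, chiefly in VIM (17595) and LUM (9093), whereas LHCGR and TNFAIP6 were above the limit on 0 arrays in any pool and AMH on 1. The 9 trophectoderm markers had a median of -0.039 in pool pair 2, with 4 above 0, and ran from -1.05 (KRT18, a keratin) to 0.94 (IFNT, interferon tau). The 5 inner cell mass markers had a median of -0.16 in that pair, with 1 above 0. The primitive endoderm markers GATA4, SOX17 and HNF4A had 1.37, -0.015 and -0.72 there. In both channels, VIM, COL1A2, STAR and CYP11A1 were above the limit on 8 of 8 arrays. Signal of these genes was thus not confined to lipid pool 2. Whether cells with such markers contribute to the SLC25A1 ratio of pool pair 2 was not tested. In pooled embryos, fewer cells of a type and less RNA per cell cannot be told apart. Of the markers of the labelled stage, 9 of 9 trophectoderm, 5 of 5 inner cell mass and 3 of 3 primitive endoderm genes with a probe were measured. GATA6, a listed primitive endoderm gene, had no probe. Of all 15229 genes on the array, 11685 were measured. CDX2 was above the limit on 4 arrays in the lipid channel and 2 in the control channel, and SOX17 on 4 and 1. Of the liver markers, ALB and APOB were above the limit on 0 arrays, and TTR was above it on 6 arrays in the lipid channel and 7 in the control channel. Of the adipocyte markers, PLIN1, LEP and CFD were measured and ADIPOQ was not.

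Beside SLC25A1, 6 genes of sterol and fatty acid metabolism, picked after their values were seen because they were low in pool pair 2, are given as values. They do not stand for their pathways: of the 73 measured genes of neighbouring steps described below, 30 were above 0 in pool pair 2, with a median of -0.062, and NR1H3 (0.73) and SCD5 (0.93) were among the 30. ACAT2, which condenses acetyl-CoA toward cholesterol, had 0.067, -1.17, 0.20 and -0.48 in pool pairs 1 to 4. SCD, the desaturase that acts on palmitate and stearate, had 0.056, -0.86, 0.12 and -0.029, and SREBF1, which encodes SREBP transcription factors, had -0.20, -0.53, 0.60 and -0.37. HMGCS1, INSIG1 and SQLE, targets of sterol-regulated transcription, had -1.52, -1.65 and -0.98 in pool pair 2. In pool pairs 1, 3 and 4, HMGCS1 had -0.13, -0.46 and -0.37, and SQLE -0.090, -0.16 and -0.24. INSIG1 had 0.45, -0.80 and -0.00033 in those pairs. HMGCS1 and INSIG1 had 4 and 3 tested probes, and only the brightest of each is given. In pool pair 1 SLC25A1, at 0.67, was above all 6, which ranged from -0.20 to 0.45.

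**Figure D4:**
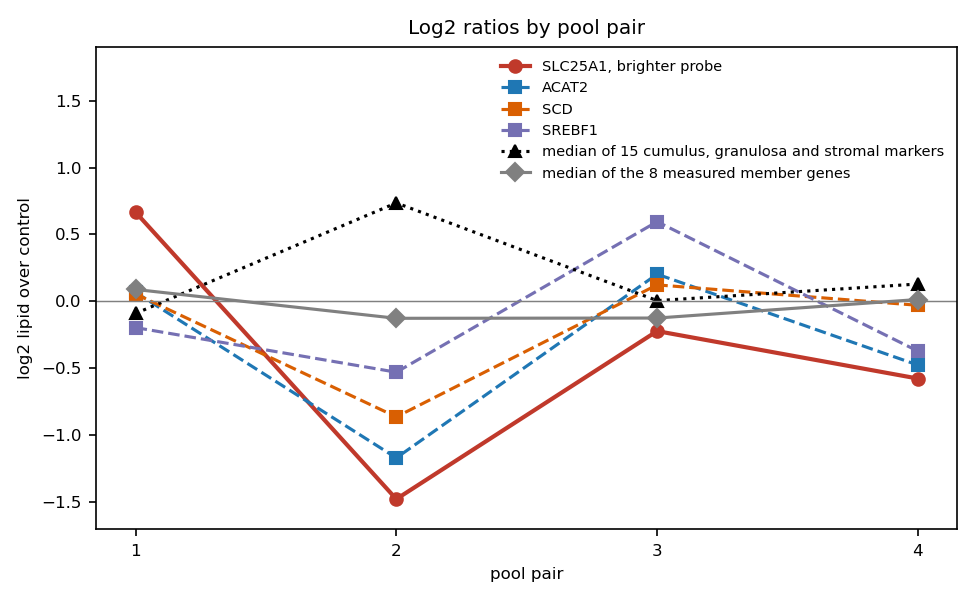
Log2 ratio of lipid over control (vertical axis) in pool pairs 1 to 4 (horizontal axis). Shown are the brighter SLC25A1 probe and 3 genes of acetyl-CoA and fatty acid use or control (ACAT2, SCD and SREBF1). Medians are of 15 cumulus, granulosa and stromal markers and of the 8 measured genes of citrate export and fatty acid synthesis. The 3 genes were picked because they were low in pool pair 2, so their place beside SLC25A1 there follows from the choice. NR1H3 (0.73) and SCD5 (0.93) were above 0 in that pair and are not shown. In pool pair 2 SLC25A1 is at -1.48, ACAT2 at -1.17 and the marker median at 0.74, while the median of the 8 genes is -0.13.

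The neighbouring steps of the pathway were also without a called gene. Over 6 lists with 79 genes, 73 were measured, 32 with a mean ratio above 0 and 41 below. All 11685 measured genes divided into 5828 above 0 and 5857 below. At an unadjusted limma p under 0.05, 3 were higher (CS, NR1H3 and SCD5) and 1 lower (MECR), where 5.37% of all genes passed. In citrate supply in mitochondria, 6 of 12 measured genes were above 0 and 6 below (median 0.0034). CS, which makes citrate, had 0.21 ± 0.082 (limma SE), the only 1 of the 12 above 0 in all 4 pool pairs, but its other probes had -0.27 and -0.046. PDHB, of pyruvate dehydrogenase, had -0.11 ± 0.074, and -0.22 ± 0.12 through its other probe. DLD, the lipoamide-reoxidizing subunit of pyruvate dehydrogenase, had -0.098 ± 0.093. For cytosolic NADPH and malate supply the 10 measured genes divided 5 to 5 (median -0.0057). ACO1, the cytosolic aconitase, had 0.28 ± 0.13. PGLS of the pentose phosphate pathway had 0.17 ± 0.095, and 0.040 ± 0.11 through its other probe. PGD, the next enzyme of that pathway, had -0.14 ± 0.13.

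Among regulators of lipogenesis, 8 of 18 were above 0 and 10 below (median -0.0080). NR1H3, the oxysterol receptor LXR alpha that induces SREBF1, had 0.40 ± 0.15 (limma SE) through its brighter probe and -0.11 ± 0.064 through the other. MID1IP1, a partner of acetyl-CoA carboxylase related to THRSP, had -0.42 ± 0.23, with -1.20 in pool pair 4. PRKAB1, a subunit of the AMP-activated kinase that inhibits acetyl-CoA carboxylase, had -0.25 ± 0.13. Of the companions in acetyl-CoA and malonyl-CoA handling, 8 of 13 were above 0 and 5 below (median 0.0080). CRAT, carnitine acetyltransferase, had -0.53 ± 0.33, with 0.56, -0.25, -1.13 and -1.29 in pool pairs 1 to 4. ACSF3, the mitochondrial malonyl-CoA synthetase, had -0.14 ± 0.079.

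In mitochondrial fatty acid synthesis, a separate pathway that makes the precursor of lipoic acid, 1 of 9 genes was above 0 and 8 below (median -0.055). MECR, its enoyl reductase, had -0.34 ± 0.10 (limma SE), with -0.21, -0.13, -0.39 and -0.64 in pool pairs 1 to 4. Its probe was dim, above the limit on 3 of 8 arrays in the lipid channel and 4 of 8 in the control channel. MCAT, the malonyl transferase, had -0.085 ± 0.067, and -0.076 ± 0.078 through its other probe. HSD17B8, a ketoacyl reductase subunit, had 0.20 ± 0.11, with 0.29, 0.22 and -0.10 through its other probes. Of the first users of palmitate, 4 of 11 were above 0 and 7 below (median -0.045). SCD5, a second desaturase, had 0.69 ± 0.24 (limma SE), with 0.21, 0.93, 0.16 and 1.46 in pool pairs 1 to 4. ACSL1, an acyl-CoA synthetase, had -0.20 ± 0.081, and ELOVL1, an elongase of long acyl chains, 0.21 ± 0.14. None of these genes passed the adjusted threshold in limma, as none did on the array.

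**Figure D5:**
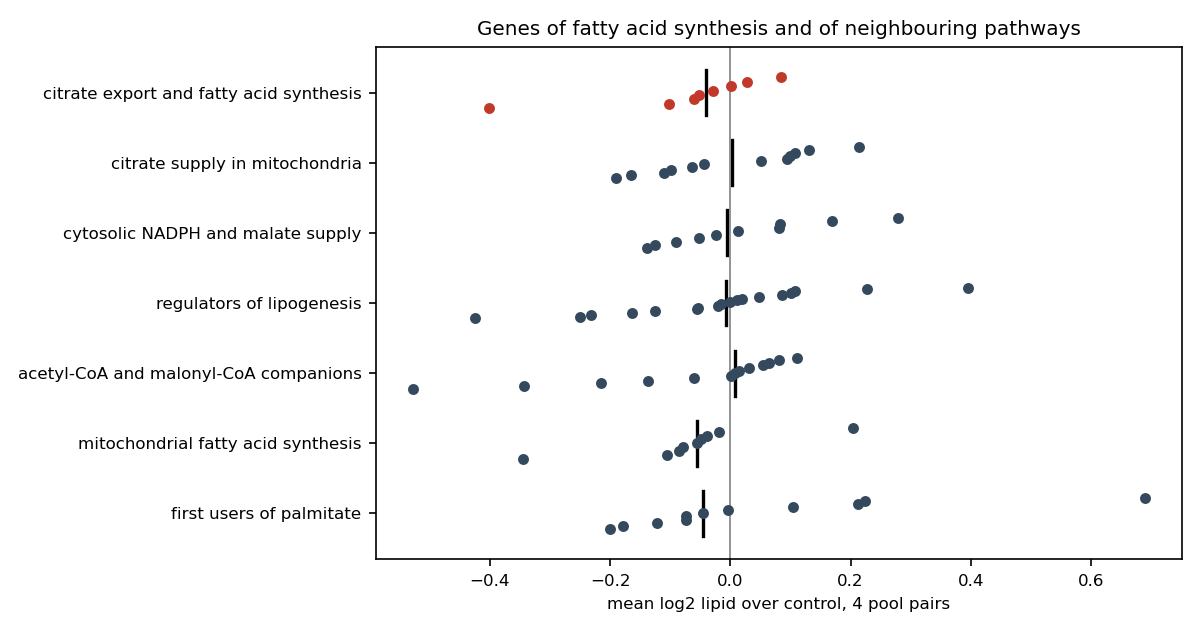
Mean log2 ratio of lipid over control over 4 pool pairs (horizontal axis) for each measured gene, by list (vertical axis); points are genes through their brightest tested probe and the bar is the list's median. Medians lie between -0.055 and 0.0080, and the single genes between -0.53 (CRAT) and 0.69 (SCD5).

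The brighter SLC25A1 probe had pool pair means of 0.68, -1.48, -0.20 and -0.51 in the authors' deposited table. For FASN the authors' deposited table averaged 0.0041 over the pool pairs, and for ACLY 0.077.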

How the data were processed

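Gene expression was measured on 8 two-colour arrays of bovine blastocyst pools. Per the file headers, the scanner files deposited by the authors give per spot the mean foreground and median background intensity in Cy3 (532 nm) and Cy5 (635 nm). A second table, of processed values that the authors deposited, was taken to hold log2 ratios. It ran as lipid over control on every array (r = 0.980 to 0.991 with the ratios computed here, slope 0.858 to 0.892, column medians -0.026 to 0.019). The log base and the background and normalization steps behind it are not stated in the labels or files, and the submitters' processing notes name limma. It served as an alternative.

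After removal of 14 closing summary rows per file and 8 spots lacking identifiers, 45212 spots remained. Intensities were background corrected (normexp, offset 50) and loess normalized within arrays with control spots at weight 0, in limma 3.58.1 under R 4.3.3. Ratios were turned to log2 lipid over control. Intensities by channel were further normalized between arrays (Aquantile). They keep the offset of 50, which pulls ratios of dim probes toward 0, and were averaged over both dyes on the log scale. A probe was tested if either channel lay more than 2 SD above the mean of 757 negative control spots on at least 4 of 8 arrays. This held for 20.5% of probes on slide 87 array 1, whose limits were 958 in Cy3 and 461 in Cy5, and for 55.2% to 73.8% elsewhere. Cy3 signals had array medians of 230 to 324 over a background of 19 to 22, Cy5 signals 180 to 229 over 36 to 58, and these and the number of arrays limit the precision.

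Arrays of the same number deviated together from the means of their dye orientation (r = 0.613 to 0.766, against -0.323 to -0.0257 for other pairings), and the design text pairs each pool's arrays by dye swap. The numbers come from the sample titles. A limma fit (lmFit, eBayes, two-sided) compared each probe's mean over the 4 pool pairs with 0, with p-values adjusted by Benjamini-Hochberg over all 28844 tested probes, with a threshold of 0.05. A check on simulated data with planted changes asked only that the fit return their mean size. How often such changes are called is not given here. Genes in lists were taken through their brightest tested probe, and up to 3 of smallest p per list were named. The members and lists were chosen with earlier results of these data known. Of the probes, 21790 carry a gene symbol in the platform's table. The alternatives were other background corrections, normalizations, filters, replicate units, priors, single slides, the authors' table and leaving out pool pairs.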

Additional observations from a re-analysis of the deposited data

Results flagged for a closer look

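In 58 sets of 4 values (pool pair ratios, pool intensities and list medians), 3 had 1 value set apart from the other 3 by most of the set's range, and chance gives about 1 in 20. The ratio of the brighter ACACB probe was -0.24 in pool pair 3, against -0.0086 to 0.034 in the other pairs. The median of the acetyl-CoA and malonyl-CoA companions was -0.23 in pool pair 4 and between -0.0056 and 0.026 elsewhere. The log2 intensity of ACLY was 13.57 in lipid pool 4, or 12154 on the linear scale, against 12.79 to 12.86 (7064 to 7444) in the other lipid pools.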

How the results depend on the processing

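In limma, 0 of the tested member probes passed the threshold under any alternative run. With no replicate block (every array counted as a sample of its own) 7 probes of the whole array passed (lowest adjusted p = 0.0216). With the replicate block as a random effect none did (lowest adjusted p = 0.0668), and the block changed no call of a member. The number of probes at an unadjusted p under 0.05 was 440 with the limit exceeded on all 8 arrays (8942 probes tested), 3211 with no replicate block, 2365 with the replicate block as a random effect and 2776 on slide 88 alone. Leaving out 1 pool pair gave 916 to 2314 such probes, the highest without pool pair 1, and 0 to 1 member probes, the 1 being SLC25A1 without pool pair 1. The median of the member genes was -0.16 with the limit on all 8 arrays, which leaves 2 member probes, 0.051 on slide 87 alone, and -0.085 to 0.0012 when 1 pool pair was left out. A limit at the median plus 2 MAD of the negative spots was chosen after seeing the data and kept 33175 probes. Apart from the median of the member genes, 602 values of single probes and of the neighbouring lists were recomputed under the alternatives, of which 601 moved by less than 1 SD and 40 changed sign. The other was the median of the regulators of lipogenesis, -0.064 without pool pair 1. For single probes the count of small moves was largely fixed in advance and is no measure of robustness. Leaving out 1 of 4 pool pairs cannot move a probe's mean by 1 SD over those pairs, and several alternatives change only the test. ACLY was at -0.067 without pool pair 4. The brighter SLC25A1 probe stayed between -0.50 and -0.30 in the 14 alternatives that keep all pool pairs. Several of those 14 leave its mean unchanged by design. The cause of these shifts was not tested. Member probes other than that of ACLY and the brighter one of SLC25A1 were not above the limit on every array, and the offset shrinks ratios of dim probes. How small a difference could be detected in ACACA, ACACB, FASN, ACSS2, ME1, THRSP and MLXIPL was not tested.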
